A study of Mus musculus with 14 samples.

Results

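The 29 genes described here carry the insulin signal from the receptor to its kinases and on to the mTOR complexes. They form a list of symbols, drawn up with earlier results of these data known though with no measured value in its rule, and comprise the receptor and its adaptors, phosphoinositide 3-kinase (PI3K) subunits, kinases, effectors, brakes of the signal and the mTOR complexes with their inputs and substrates. All 29 matched a gene among the 33459 gene IDs of the table, and all 29 had enough reads to be tested in each of the 4 comparisons below. Together they held 0.179% to 0.205% of the reads of a heart library and 0.305% to 0.345% of those of a library from gonadal white adipose tissue (gWAT), the fat pad around the gonads.

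mRNA was sequenced from wild-type (WT) mice and from mice lacking Fhl2 (FHL2-/-, here KO), whose protein is built of LIM domains and partners transcription factors and muscle proteins. All were C57BL/6 mice, 21 weeks old. Both genotypes were on high fat diet for 8 weeks, so that no group on ordinary chow enters. The groups were 4 WT and 4 KO heart libraries and 3 WT and 3 KO gWAT libraries, numbered 1 to 4 in heart and 1, 3 and 4 in gWAT. The labels do not give the sex of the mice, which part of Fhl2 was removed, or whether each library came from a separate mouse, and p-values therefore speak to the spread of these samples, which may be technical. A level is given as CPM, the read count relative to library size, scaled within the tissue by the trimmed mean of M values (TMM). The log2 fold change compares KO with WT (positive where KO is higher) and is followed by its standard error (SE). Values of libraries are listed in the order of their numbers. "Rose" and "fell" are used where the edgeR quasi-likelihood test gave an adjusted p under 0.05 over all genes tested.

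The libraries held 10835092 to 13272412 counts in heart and 15105019 to 16040188 in gWAT, and Fhl2 was at 1031 to 1396 CPM in WT heart, 28.6 to 37.8 in KO heart, 4.35 to 6.26 in WT gWAT and 0.257 to 0.462 in KO gWAT. Summed over 9 cardiomyocyte markers, heart libraries held 38300 to 44800 CPM and gWAT libraries 23.2 to 31.5. Summed over 15 white adipocyte markers, gWAT libraries held 25500 to 41500 CPM and heart libraries 1420 to 1970. In gWAT the cell type markers also moved with the genotype: 12 macrophage markers summed to 2920, 6010 and 4800 CPM in WT and to 2570, 2510 and 2800 in KO, and the white adipocyte markers to 38100, 25500 and 30500 CPM in WT and to 41500, 37100 and 38700 in KO. Of these lists, 4 of the 12 macrophage markers fell and 1 rose, and 3 of the 15 adipocyte markers rose, with 0 of them at 0 in a whole group. Of 12 markers of lipid-associated macrophages, 9 fell and all 12 had negative values, with a median log2 fold change of −2.09. They included Spp1 (−3.76 ± 0.47, edgeR adjusted p = 0.0185), Gpnmb (−3.32 ± 0.60, adjusted p = 0.0285) and Trem2 (−2.66 ± 0.42, adjusted p = 0.0253). That list summed to 23300, 21900 and 21600 CPM in WT and 17300, 16700 and 18600 in KO, most of it from Lpl and Cd36, which fat cells also express and which did not pass. Mesothelial markers (3 of 8 rose) summed to 133 to 292 CPM in WT and 380 to 629 in KO. WT replicate 1 stood nearer to the KO libraries than the other WT libraries did on the macrophage and adipocyte lists. In heart, 8 atrial markers summed to 3420 to 4830 CPM in numbers 1 and 2 of both genotypes and to 139 to 1000 CPM in numbers 3 and 4.

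Insulin binds a receptor tyrosine kinase, which phosphorylates the adaptors IRS1 and IRS2. These recruit PI3K, whose lipid product brings AKT to the membrane, where PDK1 and mTOR complex 2 activate it. AKT lets glucose transporters reach the surface, restrains lipolysis through phosphodiesterase 3B, inhibits glycogen synthase kinase 3, and releases mTOR complex 1, the driver of protein synthesis, from the TSC brake. In fat the pathway stores glucose and lipid, and in heart muscle it sets substrate use and growth. These proteins are controlled largely by phosphorylation, which mRNA levels do not measure.

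In gWAT of the KO mice 1 of the 29 genes, the adaptor Irs1, rose at adjusted p under 0.05, and 0 fell. Of all 15200 genes tested there, 5.49% passed, 2.01% higher and 3.48% lower, so the members' share lies near that of all genes. In heart 0 of the 29 passed, as with DESeq2 and limma-voom, where 0.00706% of 14159 genes did, the 1 gene being Fhl2 itself. The median log2 fold change of the 29 was 0.05 in gWAT, where the median of all genes tested was 0, and −0.01 in heart. At an unadjusted p under 0.05 the members numbered 12 of 29 in gWAT, beside 23.1% of all genes, and 0 of 29 in heart, beside 3.2%. The KO and WT libraries did not overlap for 10 of the 29 in gWAT, 7 higher and 3 lower in KO. Over all genes tested that held for 27.8%, with 13.3% higher and 14.5% lower.

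**Figure D1:**
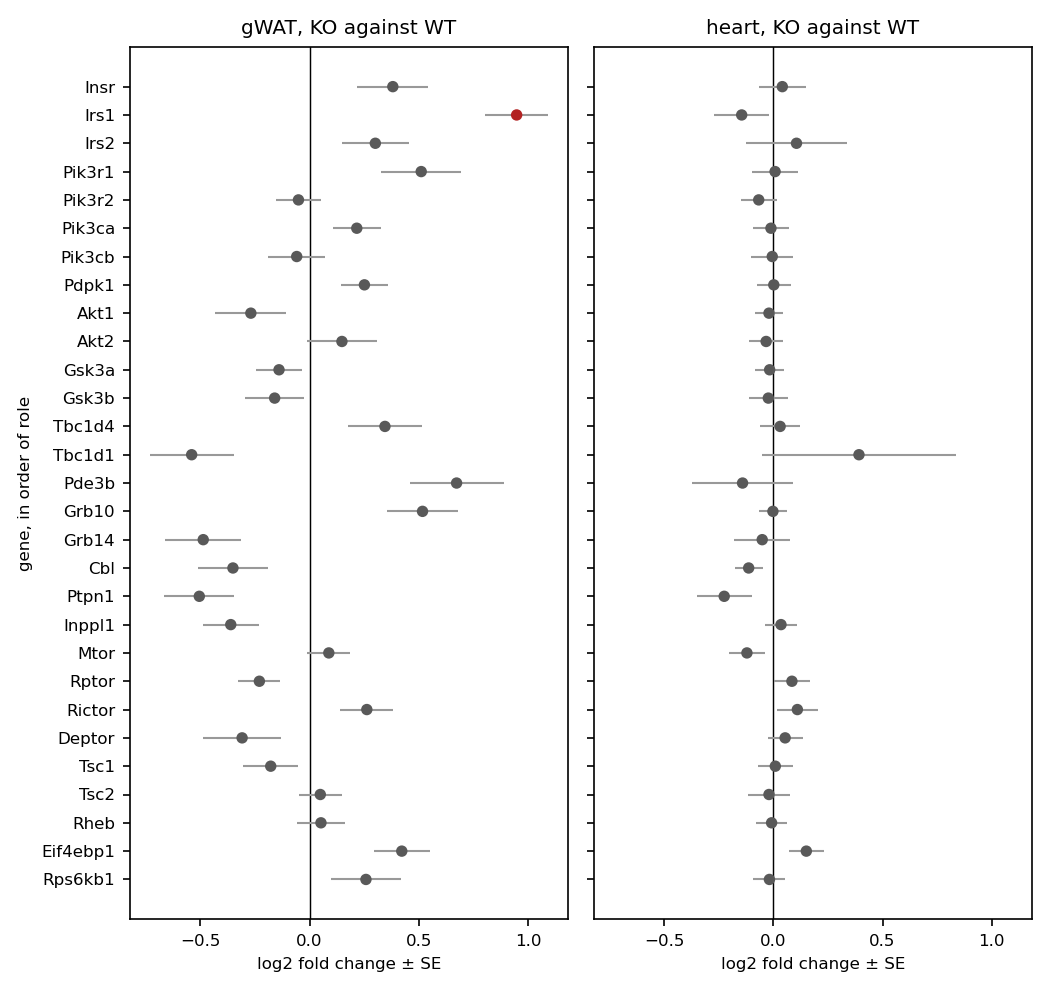
Log2 fold change of KO over WT (horizontal axis, point) with its SE (line) for the 29 genes in order of role, in gWAT (left, 3 WT and 3 KO libraries) and heart (right, 4 WT and 4 KO libraries); red marks an adjusted p under 0.05. In gWAT the values run from −0.54 (Tbc1d1) to 0.95 (Irs1, the only red point), and in heart from −0.23 (Ptpn1) to 0.39 (Tbc1d1, with the widest SE).

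Of the receptor and its adaptors, Irs1 rose 1.93-fold in gWAT. Irs1, which docks PI3K to the activated receptor, was at 27.4, 27.5 and 26.98 CPM in the 3 WT libraries and at 44.2, 49.5 and 64.3 CPM in the 3 KO libraries. The WT values lay within 1 CPM of each other and every KO library stood above them, with the widest spread in KO. The log2 fold change was 0.95 ± 0.15 (edgeR, adjusted p = 0.0236). Dropping WT replicate 1 gave an adjusted p of 0.00457, but dropping any other single gWAT library took it past 0.05. It was then 0.0508 for WT replicate 3 and 0.121 for WT replicate 4, and 0.0813, 0.0873 and 0.0928 for KO replicates 1, 3 and 4. The log2 fold change stayed between 0.79 and 1.06 in those fits. The unadjusted edgeR p was 0.000163 with all libraries, and with 1 left out it ran from 0.000134 (KO replicate 1) to 0.00125 (WT replicate 4).

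Irs2, the second adaptor, was at 74.6, 72.6 and 68.4 CPM in WT and 67.9, 95.7 and 102 CPM in KO gWAT (0.30 ± 0.15, edgeR adjusted p = 0.284). KO replicate 1 was the lowest of the 6 libraries and KO replicates 3 and 4 the highest, so the groups overlapped. Insr, the receptor itself, was at 171, 109 and 127 CPM in WT and 172, 173 and 184 CPM in KO (0.38 ± 0.16, edgeR adjusted p = 0.21). Its groups did not overlap, but WT replicate 1 lay just under the lowest KO library. Insr had the order of the adipocyte markers in WT (highest in replicate 1, lowest in replicate 3), as 28.8% of all genes tested did. The WT values of Irs1 were too close to each other for an order to be read. Like Irs1, summed fibroblast and progenitor markers were higher in every KO library, at 9390, 12000 and 11000 CPM in WT and 12900, 13100 and 13600 in KO. Of the 9 genes of that list, 5 had positive and 4 negative values. What part the mix of cells has in these values was not tested, and in bulk tissue fewer cells of a type and less RNA per cell cannot be told apart.

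In heart, Irs1 was at 21.4, 21.95, 27.1 and 23.3 CPM in WT and 16.3, 22.2, 22.3 and 24.1 CPM in KO (−0.15 ± 0.13, edgeR adjusted p = 1), groups that overlapped. The genotype effect on Irs1 differed between the tissues by 1.09 ± 0.20 on the log2 scale (gWAT minus heart, edgeR interaction contrast over 14 libraries, adjusted p = 0.0269). It was the 1 member past the threshold in that test, which 1.15% of 16014 genes passed and 6 of the 29 reached at an unadjusted p under 0.05, beside 15.2% of all genes. With the replicate number within each tissue as a block, 2 members passed, of 179 genes that did. They were Irs1 (edgeR adjusted p = 0.0277) and, lower, Tbc1d1 (−0.95 ± 0.18, adjusted p = 0.0369, beside 0.499 without the block). This block also pairs the gWAT libraries, whose equal numbers correlated between WT and KO at only −0.1, −0.186 and 0.01. Without the block and with 1 library left out, the edgeR adjusted p of Irs1 ran from 0.00568 (without gWAT WT replicate 1) to 0.0862 (without gWAT WT replicate 4). It lay above 0.05 in 8 of the 14 fits that left out 1 library: without heart WT replicate 1, 2 or 3, heart KO replicate 3, gWAT WT replicate 3 or 4, or gWAT KO replicate 3 or 4. Irs2 in heart was at 9.57, 11.2, 15.6 and 6.45 CPM in WT and 10.7, 11.7, 9.36 and 14.3 in KO (0.11, edgeR adjusted p = 1), with WT replicates 3 and 4 at the top and bottom of all 8 libraries.

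Irs1 and Irs2 are single-transcript genes, each with 2 exons in GENCODE M21 on GRCm38. Irs1 lies on the minus strand of chromosome 1 (chr1:82233101-82291416), 39036117 bases from Fhl2 and the only member on that chromosome, and Irs2 on the minus strand of chromosome 8 (chr8:10984681-11008458). The gene Gm9747 on the opposite strand covers 30.9% of the Irs1 exon bases, and it held 9 reads in all 14 libraries. The 250 bases before each RefSeq start (GRCm38.p6, minus strand, 5′ to 3′, chr1:82291440-82291689 for Irs1 and chr8:11008930-11009179 for Irs2) are printed because Irs1 carried the gWAT result and Irs2 is its partner adaptor. Capitals mark CACGTG, the E-box letters, and TGTTTTG, the core of an insulin response element.
Irs1: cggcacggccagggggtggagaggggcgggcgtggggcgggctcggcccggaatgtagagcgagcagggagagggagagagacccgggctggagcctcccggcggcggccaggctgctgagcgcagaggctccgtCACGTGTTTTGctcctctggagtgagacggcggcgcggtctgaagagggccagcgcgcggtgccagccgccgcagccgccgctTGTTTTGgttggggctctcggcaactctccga
Irs2: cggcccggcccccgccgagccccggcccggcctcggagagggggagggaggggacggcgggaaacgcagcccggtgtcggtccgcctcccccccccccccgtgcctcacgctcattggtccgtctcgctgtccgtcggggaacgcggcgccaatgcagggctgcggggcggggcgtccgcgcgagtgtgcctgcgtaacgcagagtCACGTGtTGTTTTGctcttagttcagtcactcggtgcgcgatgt

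In Irs1 the E-box letters (−115 to −110 from the start) run into TGTTTTG (−111 to −105), the pair sharing 2 bases, and a further TGTTTTG lies at −32 to −26. Irs2 has CACGTG at −44 to −39 and TGTTTTG at −37 to −31, with 1 base between them. Searched on both strands, CACGTG (its own reverse complement) was found in 6.02% of all 32851 RefSeq promoter windows of this length, TGTTTTG (read on the other strand as CAAAACA) in 5.56%, and both in 0.295%. Of the 29 genes, 25 matched that table with 34 windows: CACGTG was found for Irs1, Irs2 and Rheb, TGTTTTG for Irs1 and Irs2, and the FOXO core TGTTTAC (on the other strand GTAAACA, in 3.17% of all windows) for Akt1. These motifs and windows were chosen after the sequences were seen, and a match describes letters, not a bound site.

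Next along the pathway, the PI3K subunits gave 0 called genes in either tissue. Pik3r1, the regulatory subunit p85 alpha, was at 227, 134 and 183 CPM in WT and 241, 264 and 269 CPM in KO gWAT (0.51 ± 0.18, edgeR adjusted p = 0.139). All 3 KO libraries stood above WT, with WT replicate 3 far below and WT replicate 1 close to KO. Pik3r2, the p85 beta subunit, was level at 39.97, 42.6 and 38.7 CPM in WT and 41.9, 38.8 and 36.4 CPM in KO (−0.05). Pik3ca, the catalytic p110 alpha, was at 97.1, 84.8 and 93.8 CPM in WT and 96.3, 108 and 116 in KO (0.22, adjusted p = 0.28). Pik3cb, the catalytic p110 beta, was at 73.8, 66.7 and 60.3 CPM in WT and 54.4, 71.3 and 67.00 in KO (−0.06). Both catalytic genes overlapped between genotypes.

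The heart values of the same 4 subunits lay close together across genotypes. Pik3r1 was at 198, 168, 155 and 190.0 CPM in WT and 191, 191, 149 and 183 in KO, and Pik3r2 at 22.2, 20.04, 22.1 and 21.5 CPM in WT and 22.6, 18.8, 20.7 and 19.8 in KO. Pik3ca was at 64.3, 68.8, 76.9 and 74.6 CPM in WT and 66.3, 72.7, 65.9 and 77.7 in KO, and Pik3cb at 18.6, 17.8, 19.9 and 20.3 CPM in WT and 17.7, 18.6, 22.1 and 17.8 in KO. Their log2 fold changes in heart ran from −0.07 (Pik3r2) to 0.01 (Pik3r1), with SE of 0.08 to 0.10.

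Among the kinases, Pdpk1, which phosphorylates AKT, was the 1 gene whose gWAT groups did not overlap. It was at 97.6, 85.4 and 93.9 CPM in WT and 99.8, 117 and 112 CPM in KO (0.25 ± 0.11, edgeR adjusted p = 0.205), a small step in which WT replicate 1 and KO replicate 1 nearly met. Akt1, the widely expressed AKT, was at 99.6, 159.7 and 134 CPM in WT and 109, 107 and 111 in KO (−0.27, adjusted p = 0.364). Akt2, the AKT most tied to glucose uptake, was at 236, 158 and 172 CPM in WT and 215, 219 and 193 in KO (0.15, adjusted p = 0.625). The 2 genes ran in opposite order over the WT libraries: Akt1 was highest in replicate 3 and lowest in replicate 1, and Akt2 the reverse. Gsk3a, a glycogen synthase kinase, was at 71.9, 76.7 and 68.5 CPM in WT and 72.04, 60.8 and 64.2 in KO, and its relative Gsk3b at 141, 117 and 118 CPM in WT and 95.2, 125 and 117 in KO. Neither passed the test (−0.14 and −0.16), and 9130221H12Rik on the opposite strand covers 28.3% of the Gsk3a exon bases.

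In heart the kinases differed little between libraries. Akt1 was at 158, 163, 143 and 155 CPM in WT and 156, 153, 151 and 151 CPM in KO, and Akt2 at 75.4, 84.9, 84.99 and 89.4 CPM in WT and 85.6, 76.1, 78.3 and 86.9 in KO. Gsk3a was at 53.6, 55.6, 56.7 and 58.01 CPM in WT and 55.6, 51.95, 54.6 and 59.1 in KO, and Gsk3b at 80.4, 79.3, 77.4 and 79.6 CPM in WT and 64.5, 79.4, 82.9 and 84.97 in KO. With Pdpk1, the log2 fold changes of the 5 kinases in heart lay between −0.03 (Akt2) and 0.002 (Pdpk1) with SE of 0.07 to 0.09, and KO replicate 1 was the low library for Gsk3b.

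After Irs1, the largest log2 fold changes in gWAT were those of the effectors Pde3b and Tbc1d1, neither past the test. Pde3b, the phosphodiesterase through which insulin restrains fat breakdown, was at 352, 184 and 245 CPM in WT and 395, 426 and 424 CPM in KO (0.67 ± 0.22, edgeR adjusted p = 0.107). The KO libraries were tight and all above WT, while the WT libraries spread widely, replicate 3 being the lowest. Tbc1d4 (AS160), a Rab GTPase-activating protein that holds back glucose transporter vesicles until AKT phosphorylates it, was at 86.02, 53.1 and 62.5 CPM in WT and 90.3, 79.9 and 85.9 in KO (0.35, adjusted p = 0.27). Its relative Tbc1d1, best known in muscle, had the opposite sign, at 24.4, 42.4 and 36.01 CPM in WT and 21.7, 23.96 and 25.2 in KO (−0.54, adjusted p = 0.138). WT replicate 1 lay within the KO range for Tbc1d1, and within it for Tbc1d4 too. In WT, Pde3b and Tbc1d4 had the order of the adipocyte markers and Tbc1d1 that of the macrophage markers. Other marker lists shared these orders, as did 28.8% and 31.6% of all genes tested. The share of any cell type in the difference was not tested.

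**Figure D2:**
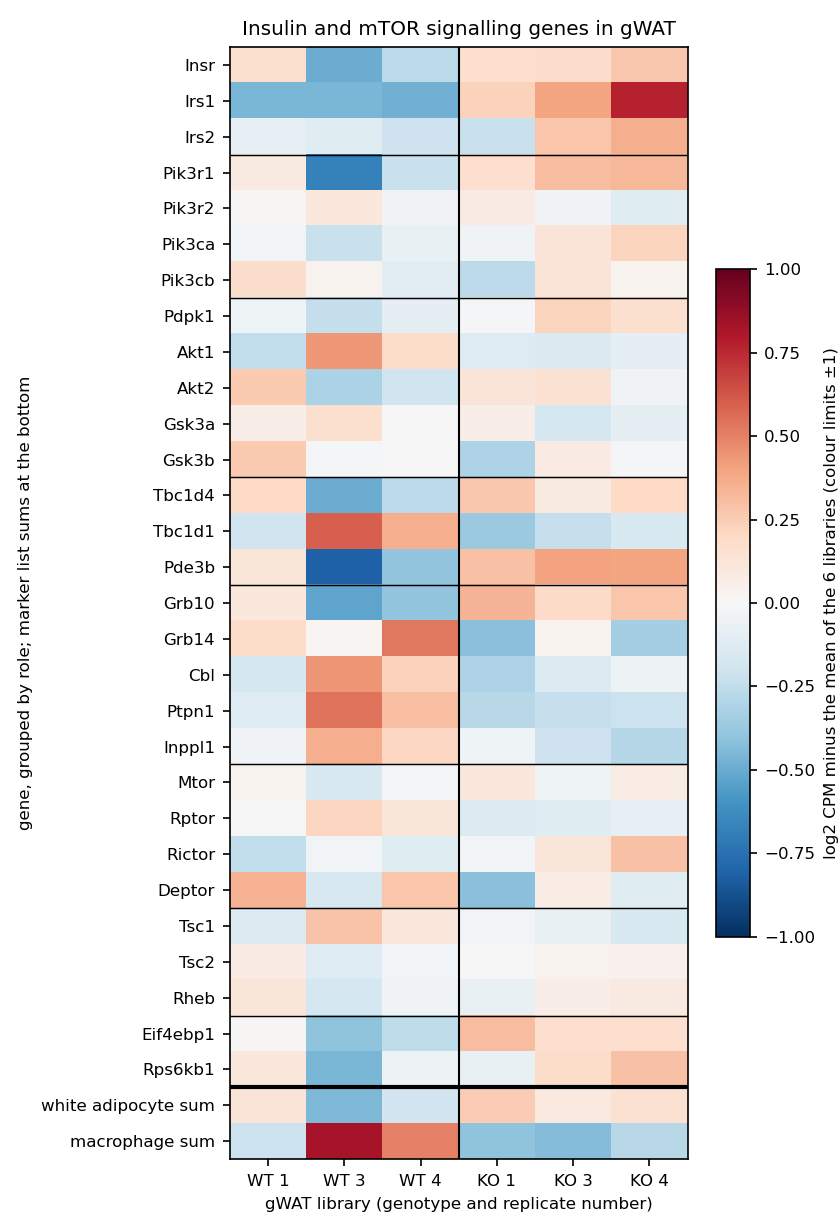
Colour shows log2 CPM of each gene (rows, grouped by role) minus its mean over the 6 gWAT libraries (columns); the bottom 2 rows show the summed white adipocyte and macrophage markers in the same way. Irs1 is low in all 3 WT columns and high in all 3 KO columns, whereas for many other rows WT 1 has the colour of the KO columns and WT 3 the opposite colour.

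Tbc1d1 was the most variable member in heart. It was at 57.5, 47.6, 17.1 and 18.2 CPM in WT and 71.03, 61.5, 29.6 and 22.97 CPM in KO (0.39 ± 0.44, edgeR adjusted p = 1). Numbers 1 and 2 of both genotypes stood 2.7-fold above numbers 3 and 4, the same split as the atrial markers, which summed to 4120, 3420, 139 and 178 CPM in WT and 4440, 4830, 630 and 1000 CPM in KO. The split was not particular to the atrial list. Mesothelial markers had it too, summing to 246, 315, 58.3 and 48.4 CPM in WT and 208, 252, 59 and 116 CPM in KO heart. Within numbers 1 and 2 the KO mean was 1.26 times the WT mean, and within numbers 3 and 4 it was 1.49 times. With the number as a block the log2 fold change was 0.44 ± 0.09 (edgeR adjusted p = 0.276), and with the mean atrial level as a covariate it turned to −0.18 ± 0.15 (adjusted p = 0.819). With a block by number in both tissues, the Tbc1d1 genotype effect differed between them (edgeR adjusted p = 0.0369, beside 0.499 without the block). That block also pairs the gWAT libraries, whose equal numbers correlated between WT and KO at only −0.1, −0.186 and 0.01. The KO heart libraries also held more of the atrial markers than the WT heart libraries of the same number. Tbc1d1 lies on the plus strand of chromosome 5 (chr5:64156305-64351486).

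**Figure D3:**
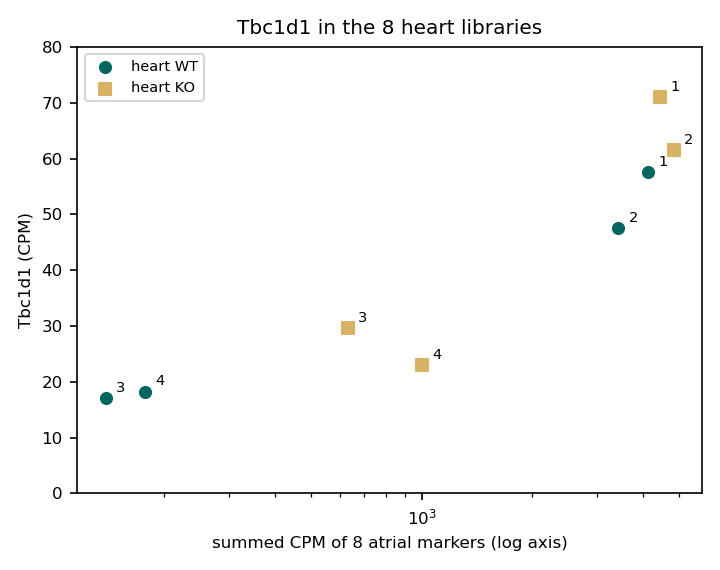
Tbc1d1 level (vertical axis, CPM) against the summed CPM of 8 atrial markers (horizontal log axis) in the 8 heart libraries, circles for WT and squares for KO, with the replicate number beside each. Numbers 1 and 2 of both genotypes lie at the upper right (47.6 to 71.0 CPM) and numbers 3 and 4 at the lower left (17.1 to 29.6 CPM).

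Besides Tbc1d1, Pde3b and Ptpn1 had all 4 heart libraries of numbers 1 and 2 above those of numbers 3 and 4, as 7.25% of all genes tested did. Irs1 and Grb10 had them all below, as 5.62% did. Tbc1d4 did not follow that split, at 85.7, 73.6, 77.96 and 84.6 CPM in WT and 70.3, 90.01, 81.2 and 87.5 in KO.

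The brakes of the signal gave 0 called genes in gWAT, with values of both signs. Grb10, an adaptor that binds the receptor and dampens it, was at 76.01, 48.9 and 53.8 CPM in WT and 89.5, 80.5 and 85.6 CPM in KO (0.52 ± 0.16, edgeR adjusted p = 0.105), all KO libraries above WT. The related Grb14 was at 23.7, 21.1 and 30.01 CPM in WT and 15.6, 21.3 and 16.5 in KO (−0.49 ± 0.18, adjusted p = 0.14), with KO replicate 3 just inside the WT range. Ptpn1 encodes PTP1B, the phosphatase that strips phosphate from the receptor. It was at 55.99, 89.2 and 75.6 CPM in WT and 50.6, 52.3 and 52.7 CPM in KO (−0.51 ± 0.16, edgeR adjusted p = 0.106), and the tight KO group lay under all 3 WT libraries. Inppl1 (SHIP2), a lipid phosphatase that removes the PI3K product, was at 86.02, 114 and 102 CPM in WT and 85.7, 76.6 and 72.6 in KO (−0.36 ± 0.13, adjusted p = 0.136). WT replicate 1 and KO replicate 1 were within 1 CPM of each other there. Cbl, a ubiquitin ligase of activated receptor kinases, was at 112, 172 and 148 CPM in WT and 102, 115 and 122 in KO (−0.35, adjusted p = 0.24), with overlapping groups. For Ptpn1, Inppl1 and Cbl the WT order was that of the macrophage markers, highest in replicate 3 and lowest in replicate 1, as for 31.6% of all genes tested. The summed fibroblast and progenitor markers and the summed lymphocyte markers had that WT order too.

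In heart, Cbl was the 1 member whose groups did not overlap, as 2.41% of all genes tested did (1.24% higher and 1.17% lower). It was at 49.2, 48.9, 47.8 and 52.9 CPM in WT and 43.9, 45.7, 46.4 and 47.7 CPM in KO (−0.11 ± 0.06, edgeR adjusted p = 1), and the highest KO library and the lowest WT library met within 0.1 CPM. Grb10 was at 75.6, 72.8, 78.7 and 82.3 CPM in WT and 74.9, 75.5, 78.3 and 80.2 in KO, and Grb14 at 99.9, 86.6, 126 and 134 CPM in WT and 106, 99.2, 106 and 118 in KO. Neither Grb gene differed beyond its spread (−0.002 and −0.05). Ptpn1 and Inppl1 had log2 fold changes of −0.23 and 0.04 in heart.

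Of the mTOR complexes, the genes that define complex 1 and complex 2 had values of opposite sign in gWAT, and 0 of 4 genes passed. Rptor encodes raptor, which defines complex 1 and brings it its substrates. It was at 60.7, 70.3 and 65.7 CPM in WT and 55.1, 55.7 and 57.01 CPM in KO (−0.23 ± 0.10, edgeR adjusted p = 0.198), each KO library below each WT library. Rictor, which defines complex 2, was at 24.4, 28.3 and 26.5 CPM in WT and 28.3, 31.3 and 35.3 CPM in KO (0.26 ± 0.12, adjusted p = 0.242), where WT replicate 3 and KO replicate 1 were level. Mtor itself, the kinase of both complexes, had a log2 fold change of 0.09 ± 0.10 and Deptor, an inhibitor that binds mTOR, one of −0.31 ± 0.18. Neither of the 2 passed the test, and Deptor in KO ranged from 343 to 483 CPM beside 409.8 to 583 in WT.

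Rptoros, an antisense RNA at the Rptor locus, was at 3.31, 10.5 and 6.85 CPM in WT and 0.660, 0.963 and 0.451 CPM in KO gWAT, and it fell by 3.30 ± 0.48 on the log2 scale (edgeR adjusted p = 0.0221). Dropping WT replicate 4 took the adjusted p to 0.119, and dropping KO replicates 1, 3 and 4 to 0.101, 0.0837 and 0.0985. Its WT values had the order of the macrophage markers, as 31.6% of all genes tested did. Rptoros lies on the minus strand (chr11:119820812-119834365) within the Rptor locus (chr11:119602905-119899576, plus strand). Its exons share 84 bases with those of Rptor. Whether counting used strand is not given in the sources used here, so reads of the 2 cannot be told apart in the shared bases. In heart it held 1 read over the 8 libraries, while Rptor was at 27.02, 25.9, 31.2 and 28.6 CPM in WT and 27.7, 29.5, 29.3 and 33.1 in KO. Rictor in heart was at 27.4, 28.2, 24.1 and 24.1 CPM in WT and 24.1, 30.9, 28.6 and 28.6 in KO, so both complex-defining genes overlapped between genotypes there (0.09 and 0.11).

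The inputs to complex 1 had small values in gWAT, and 0 of 3 passed. Tsc1 and Tsc2 form the complex that switches off Rheb, the GTPase that activates mTOR complex 1. Tsc1 was at 34.5, 46.2 and 40.7 CPM in WT and 37.2, 35.97 and 34.1 in KO (−0.18), and Tsc2 at 127, 109 and 117 CPM in WT and 119.5, 122 and 123 in KO (0.05). Rheb had a log2 fold change of 0.05 ± 0.11. In heart Tsc1 was at 36.7, 40.01, 44.7 and 40.9 CPM in WT and 36.7, 41.5, 42.3 and 42.7 in KO, and Tsc2 at 86.2, 85.4, 107 and 112 CPM in WT and 99.1, 94.2, 99.5 and 92.6 in KO. Groups overlapped for all 3 genes in both tissues, and 7.2% of the Tsc2 exon bases are also exons of Pkd1 on the opposite strand.

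Of the substrates of complex 1, Eif4ebp1 came nearest to the threshold after Irs1. It encodes 4E-BP1, which blocks cap-dependent translation until mTOR phosphorylates it. Its gWAT levels were 168, 126 and 139 CPM in WT and 207, 187 and 187 CPM in KO (0.42 ± 0.13, edgeR adjusted p = 0.0939), all KO libraries above all WT libraries and WT replicate 1 the nearest. Rps6kb1, the S6 kinase, differed by 0.26 ± 0.16 on the log2 scale (adjusted p = 0.383). The heart values of the 2 substrates were 0.15 and −0.02.

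WT replicate 1 bore on most of these gWAT values. It was the WT library nearest to the KO mean for 19 of the 29 genes, beside 48.1% of all genes tested. The WT order was that of the adipocyte markers (replicate 1 highest, replicate 3 lowest, replicate 4 between) for 15 of the 29, beside 28.8% of all genes, and that of the macrophage markers (the reverse) for 8, beside 31.6%. Neither order was particular to these lists. Mesothelial markers (292, 133 and 250 CPM in WT) had the first, and fibroblast and progenitor markers (9390, 12000 and 11000 CPM) the second. Without WT replicate 1, 12 of the 29 passed, beside 18.7% of 15578 genes (7.71% higher and 11% lower). Insr, Irs1, Pik3r1, Tbc1d4, Grb10, Pde3b and Eif4ebp1 were then higher in KO, and Akt1, Tbc1d1, Cbl, Ptpn1 and Inppl1 lower. For a gene whose WT replicate 1 lies nearest to KO, leaving it out widens the difference by construction. Leaving out any other gWAT library gave 0 of the 29, while over all genes 132 (0.855%) passed without WT replicate 3 and 0 in each of the other 4 fits. At an unadjusted p under 0.05 these 5 fits held 4 to 11 members, beside 15.3% to 20.6% of all genes. Irs1, the 1 member that passed with all 6 libraries, had level WT values.

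Balance between related genes was read from CPM per kilobase of exon within each library, a description with no test. In WT gWAT, Irs2 was 3.8-fold above Irs1, and in KO gWAT 2.42-fold. The log2 ratio of Irs1 to Irs2 was −1.98 to −1.87 in WT and −1.48 to −1.15 in KO. In heart the order was the other way, with Irs1 1.58-fold above Irs2 in WT and 1.27-fold in KO, and overlapping ranges. Of the 9 pairs, 4 did not overlap between genotypes in gWAT and 0 in heart, where single genes did not overlap in 27.8% and 2.41% of cases. The share over other gene pairs was not computed, so the count describes these pairs only. Besides the adaptors these were Pik3r1 over Pik3r2 (1.82-fold in WT, 2.74-fold in KO), Grb10 over Grb14 (1.87-fold and 3.82-fold) and Rictor to Rptor. For the last, the log2 ratio was −1.65 to −1.64 in the 3 WT libraries and −1.29 to −1.02 in the 3 KO libraries.

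Some balances differed between the tissues whatever the genotype. Akt1 exceeded Akt2 by 3.22-fold in WT heart and 3.25-fold in KO heart, while in gWAT the 2 were nearly level on average, at 1.21-fold in WT and 0.908-fold in KO. The WT gWAT libraries disagreed in direction, with log2 ratios of Akt1 to Akt2 from −0.445 to 0.813. Pik3ca exceeded Pik3cb by 2.94-fold in both heart groups and by 1.09-fold in WT and 1.32-fold in KO gWAT. Grb14 exceeded Grb10 by 1.8-fold in WT heart, the reverse of gWAT. Tsc2 exceeded Tsc1 in all groups, by 2.91-fold to 4.18-fold, and Gsk3a exceeded Gsk3b by 1.96-fold to 2.42-fold. With the longest transcript in place of all exons as the length, the mean log2 ratios of Grb10 to Grb14 became 0.39 in WT gWAT and −1.36 in WT heart, and that of Pik3ca to Pik3cb −0.001 in WT gWAT.

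**Figure D4:**
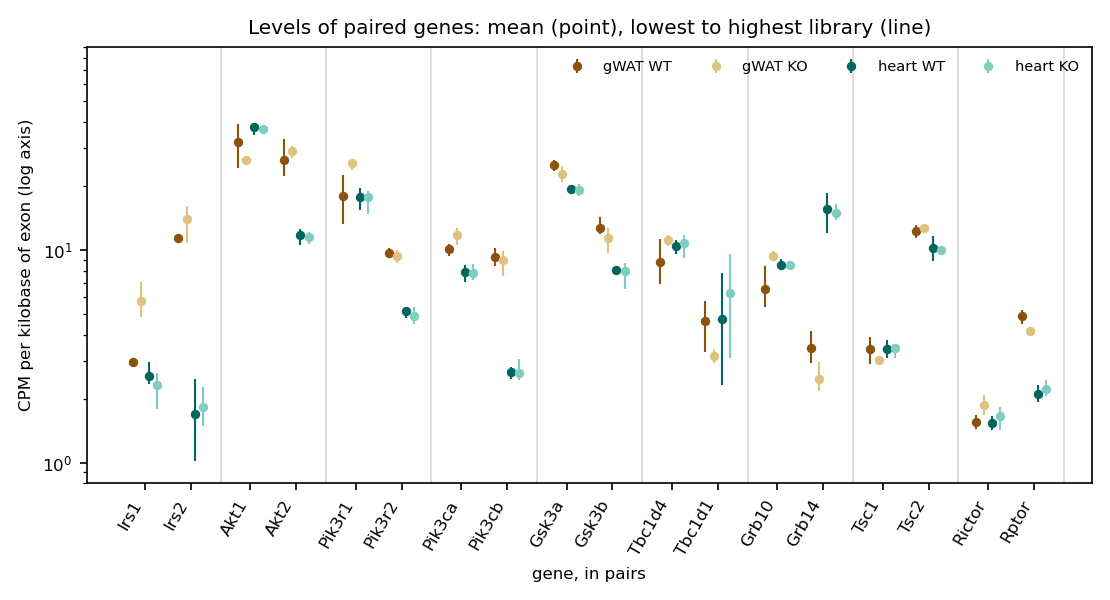
CPM per kilobase of exon (vertical log axis) for the genes of the 9 pairs (horizontal axis) in the 4 groups; points are group means and lines run from the lowest to the highest library (3 in gWAT, 4 in heart). Irs2 stands above Irs1 in gWAT and below it in heart, and Grb14 stands above Grb10 in heart only.

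Per kilobase of all exons, Eif4ebp1 (65.8 CPM per kilobase) and Deptor (58.1) led the 29 genes in WT gWAT, followed by Akt1 (32.01) and Pde3b (28.6), and Rictor (1.56) and Irs1 (2.99) were the lowest. In KO gWAT Irs1 stood at 5.76 CPM per kilobase and was 24th of 29 instead of 28th. WT heart was led by Akt1 (37.7), Inppl1 (22.8) and Gsk3a (19.3), with Pde3b (1.13) and Rictor (1.53) at the bottom. By this length Pde3b was thus among the 4 highest in fat and the lowest in heart. With the longest transcript as the length it ranked 5th in WT gWAT and 29th in WT heart. In WT heart that length put Grb14 2nd, Gsk3a 5th and Rictor 26th.

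Between WT heart and WT gWAT, 21 of the 29 genes differed (edgeR, adjusted p under 0.05), beside 69.4% of 15287 genes tested. At an unadjusted p it was also 21, beside 71.8%. Higher in heart were 10 (33.3% of all genes) and lower 11 (36.1%). This split depends on the scaling: with library totals and no scaling factors the median of all genes moved from −0.03 to −0.61, and 3 of the 29 were higher in heart and 19 lower, beside 19% and 56.1% of all genes (75% in either direction). Grb10, Grb14 and Inppl1 were higher in heart on both scales. Grb14 was at 20.1 ± 3.62 CPM (SD, n = 3) in gWAT and 130.0 ± 25.5 (SD, n = 4) in heart on the scale common to the 7 WT libraries (2.69 ± 0.19, edgeR adjusted p = 2.05e-06). Inppl1 had a log2 difference of 1.07 ± 0.11 and Grb10 of 0.90 ± 0.16. Genes on the opposite strand cover 20.3% of the Inppl1 exon bases, most of it Gm10602 (18.8%), which held 438 reads in all 14 libraries.

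All 11 of the genes that were lower in heart under TMM were also lower under library totals. The largest differences were those of Pde3b (−4.12 ± 0.32), Deptor (−3.21 ± 0.14), Irs2 (−2.22 ± 0.23), Eif4ebp1 (−1.57 ± 0.11) and Pik3cb (−1.28 ± 0.11). Pde3b was at 211 ± 72.8 CPM in gWAT and 12.1 ± 4.35 in heart, and Deptor at 417 ± 80.4 and 45.0 ± 2.76. Irs2 was at 58.1 ± 3.41 CPM in gWAT and 12.5 ± 4.47 in heart. Cbl, Ptpn1, Rptor, Akt2, Pik3r2 and Rps6kb1 were lower in heart by smaller amounts, from −1.002 (Cbl) to −0.37 (Rps6kb1). The Rps6kb1 call (edgeR adjusted p = 0.0368) was lost with RLE scaling (0.055), DESeq2 (0.0583) and the replicate block (0.0733), and in 5 of the 7 fits that left out 1 library, where it reached 0.131 without gWAT WT replicate 1. The calls of Irs1 and Pik3r1, higher in heart, were each lost in 4 of those 7 fits (up to 0.0921 and 0.0897, both without gWAT WT replicate 4), and that of Irs1 also with the replicate block (0.0523), without the filter (0.14) and in 1 fit of all 14 libraries (0.0692). Of the 10 genes higher in heart under TMM, Irs1, Pik3r1, Rictor and Tsc1 turned sign under library totals.

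**Figure D5:**
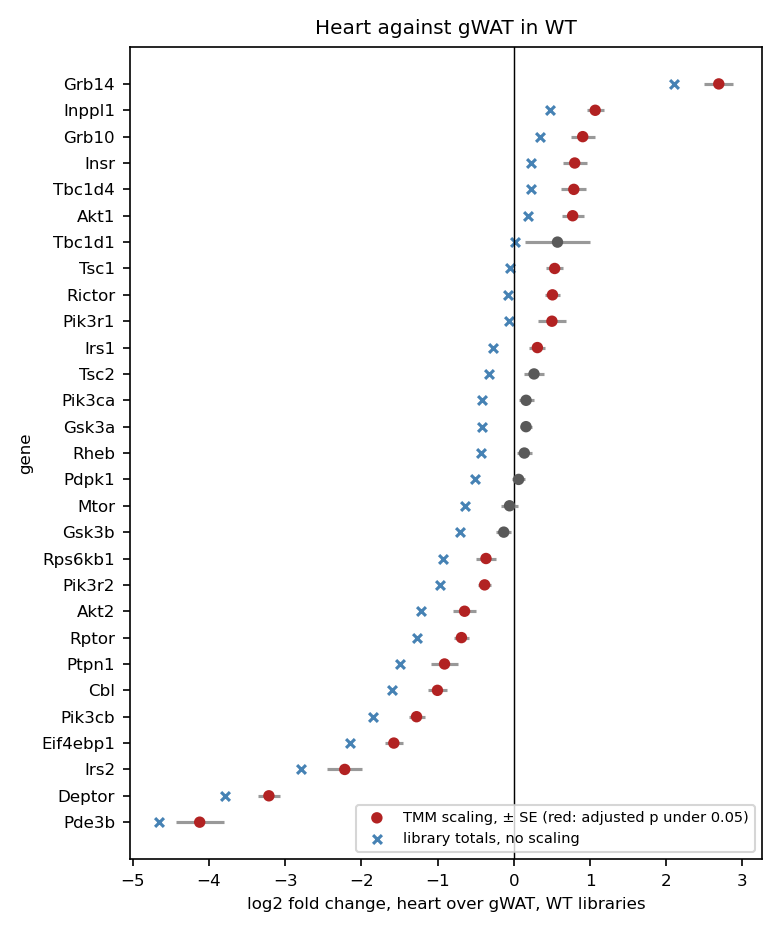
Log2 difference of WT heart over WT gWAT (horizontal axis) for the 29 genes, with TMM scaling (points with SE, red where adjusted p is under 0.05) and with library totals (crosses). Pde3b, Deptor and Irs2 lie far to the left and Grb14 far to the right on both scales, while genes near the middle change side with the scaling.

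Other genes of the pathway, in 7 lists taken whole, showed few called genes in gWAT and 0 in heart, where 1 to 3 genes of 4 of the lists and 0 of the other 3 had an unadjusted p under 0.05. Together 6 of 140 genes passed in gWAT (4.29%, 3 higher and 3 lower), which lies near the 5.49% of all genes, and 36 had an unadjusted p under 0.05 (25.7%, beside 23.1%). In heart 7 of 139 had one (5.04%, beside 3.2%). Among receptor, adaptor and PI3K relatives 0 of 16 tested passed, and the IGF1 receptor Igf1r (0.48, edgeR adjusted p = 0.0713) and the adaptor Grb2 (−0.47, adjusted p = 0.0828) came nearest. In the leukocyte PI3K list, 1 of 6 fell: Pik3ap1 (BCAP), an adaptor of PI3K in immune cells, went from 69.1 ± 27.98 CPM in WT to 19.98 ± 0.773 in KO (SD, n = 3; −1.79 ± 0.28, edgeR adjusted p = 0.0253). All 6 of that list had negative values, with a median of −0.82, beside a median of −0.71 for the macrophage markers and −2.09 for those of lipid-associated macrophages. Of 22 other brakes 1 rose, Cish, a cytokine signalling inhibitor (2.75 ± 0.235 to 8.27 ± 4.10 CPM; 1.59 ± 0.36, adjusted p = 0.0439).

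Of 27 genes of glucose transporter traffic and insulin effectors 1 rose, the vesicle protein Vamp2 (0.42 ± 0.09, edgeR adjusted p = 0.0358), and the list had a median of 0.16 with 20 positive and 7 negative values. Of 31 amino acid and lysosome inputs to mTOR 2 fell: the leucine transporter subunit Slc7a5 (12.2 ± 1.29 to 5.58 ± 0.625 CPM; −1.13 ± 0.16, adjusted p = 0.0216) and the Rag GTPase Rragd (2.95 ± 1.60 to 0.582 ± 0.187 CPM; −2.33 ± 0.50, adjusted p = 0.0387). Of 13 energy and stress inputs 1 rose, Prkab2, a subunit of the energy sensor AMPK (0.49 ± 0.10, adjusted p = 0.0357). Among 25 partners and targets of the mTOR complexes 0 passed, the lysosomal regulators Tfeb (−0.71, adjusted p = 0.0848) and Tfe3 (−0.47, adjusted p = 0.0939) being nearest.

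The genotype effect differed between the tissues for Pik3ap1 (−1.68 ± 0.37, edgeR adjusted p = 0.043), Slc7a5 (−1.58 ± 0.26, adjusted p = 0.0218) and Rragd (−2.34 ± 0.43, adjusted p = 0.025). These were 3 of 141 genes of the lists tested in that contrast (2.13%), beside 1.15% of all genes. How these 3 differences between tissues hold under the alternatives was not examined. Each of the 6 calls in gWAT was lost in several fits that left out 1 library. Cish (adjusted p = 0.0855) and Rragd (0.0773) also missed the threshold with limma-voom, and Vamp2 (0.0567) with edgeR on library totals. Without WT replicate 4 the adjusted p was 0.121 for Pik3ap1 and Slc7a5, 0.145 for Rragd, 0.162 for Cish, 0.177 for Prkab2 and 0.183 for Vamp2. The part of the macrophage and lipid-associated macrophage markers in the values of Pik3ap1, Slc7a5 and Rragd was not tested.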

How the data were processed

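The deposited table holds whole-number read counts per Ensembl gene, which the authors made with tools that the submitters' processing notes list without roles: FastQC, Picard, Trimmomatic 0.32, HISAT2 2.1.0, HTSeq 0.11.0 and limma, with build mm10 (GRCm38). Per the labels' protocols, tissue was flash frozen, RNA taken with Trizol and libraries made with a Kapa mRNA kit. The annotation release is not given in the sources used here, nor is the strand setting. There are 0 columns without a sample. Of the IDs, 33406 carry a symbol.

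The analysis used R 4.3.3, edgeR 4.0.16, limma 3.58.1, DESeq2 1.42.0, Python 3.11.15, pandas 2.3.3 and matplotlib 3.10.9. After filterByExpr by group and TMM scaling, edgeR's quasi-likelihood F test was run for KO against WT within each tissue, for the interaction over 14 libraries, and for heart against gWAT in WT. P-values were adjusted by Benjamini and Hochberg's method over every gene tested, and 0.05 was the threshold. The SE is the log2 fold change divided by the root of F. The biological coefficient of variation was 0.168 in gWAT and 0.149 in heart. Exon lengths and positions come from GENCODE M21, promoters from RefSeq. No 2 libraries of a group were duplicates: chi-square over its degrees of freedom was at least 3.74. The code was tested on simulated counts.

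Levels of every library are given for genes past a threshold, for genes whose groups do not overlap and for 9 gene pairs, and of each pathway list the called genes or the 2 with the smallest p in gWAT. Genes that the rule takes in heart from those lists are not reported here. Members and lists were chosen with earlier results of these data known. The alternatives were other scalings, filters and tools, a replicate block, 1 fit of all libraries, an atrial covariate, a looser threshold and leaving out each library. The split of heart numbers, the order of the WT gWAT libraries and the motifs were chosen after the data were seen. In heart, deviations from the group mean correlated between WT and KO of equal number at 0.202, 0.262, 0.265 and 0.195. Unequal numbers within 1 and 2, and within 3 and 4, also correlated (0.142 to 0.349), so pairs and these sets cannot be told apart. The main tests used no pairs, and the number entered only in the alternative with a replicate block.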

Additional observations from a re-analysis of the deposited data

Results flagged for a closer look

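The genotype effect on Irs1 differed between the tissues, by 1.09 on the log2 scale (gWAT minus heart), in the edgeR interaction contrast. Irs1 was higher in 3 of 3 KO gWAT libraries than in every WT library, as 13.3% of all genes tested were, while the heart groups overlapped. The edgeR adjusted p of the contrast was 0.0269 with all libraries and reached 0.0862 with 1 left out (gWAT WT replicate 4).

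Of 58 groups of heart values tested for a single library apart from the rest (29 genes in WT and in KO), 2 stood out, and chance gives about 1 in 20. Mtor was at 51.8 CPM in KO replicate 4, beside 54.7 to 55.2 CPM in the other 3 KO hearts, and Deptor was at 42.0 CPM in WT replicate 3, beside 37.0 to 37.6 in the other 3 WT hearts. Groups of 3, as in gWAT, were not tested.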

How the results depend on the processing

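The 29 genes held 70 to 9138 reads each in a library. Whether depth or the number of libraries limits the comparisons more was not compared. In gWAT, 834 genes passed with edgeR as described, of which 1 was a member (Irs1). Without a filter beyond 1 count they were 1600 and 2 (Irs1, Pde3b), with DESeq2 1769 and 3 (Irs1, Pde3b, Eif4ebp1), in 1 fit of all 14 libraries 1725 and 5 (Irs1, Grb10 and Eif4ebp1 higher, Ptpn1 and Inppl1 lower), and at an adjusted p under 0.1 they were 1800 and 2 (Irs1, Eif4ebp1). With limma-voom they were 477 and 1. Leaving out 1 library gave 0 to 2908 genes and 0 to 12 members. Equal numbers correlated between WT and KO gWAT libraries at only −0.1, −0.186 and 0.01. This does not show pairing, and with 3 libraries per group it cannot exclude it. With the number as a replicate block 0 genes and 0 members passed in edgeR, with 2922 genes and 11 members at an unadjusted p under 0.05, and Irs1 had an adjusted p of 0.0572.

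In heart, 1 gene passed, 3 without the filter, 2 with DESeq2 and 7 with the atrial level as a covariate. Members passing there were 0 in each alternative, the block included. In the interaction, 184 genes passed, 533 without the filter, 669 with DESeq2, 69 with limma-voom, 559 at an adjusted p under 0.1 and 3 to 1315 with 1 library left out. The members passing were 2 with the replicate block (Irs1 higher, Tbc1d1 lower) and 0 to 7 with 1 library left out. In the heart and gWAT comparison of WT, library totals turned Irs1 to −0.274, Pik3r1 to −0.062, Pik3ca to −0.418, Pdpk1 to −0.511, Gsk3a to −0.421, Rictor to −0.071, Tsc1 to −0.054, Tsc2 to −0.319 and Rheb to −0.432. Over all alternatives there, members passing ranged from 18 to 22. Of 435 log2 fold changes of members in gWAT over the alternatives, 411 kept their side of the threshold, 5 of them with another sign (in 4 genes, with values near 0), 18 newly passed, 6 no longer passed (all Irs1) and 0 called values turned. The causes were not tested.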
